A study of Mus musculus with 9 samples.

Results

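Sorl1, Bin1, Picalm, Abca7, Cd2ap, Inpp5d, Plcg2, Cd33, Spi1 and Abi3 are the mouse counterparts of 10 genes near which human genetic studies of Alzheimer's disease have placed risk variants. They were chosen by name, 5 for a part in endocytosis or lipid handling (Sorl1, Bin1, Picalm, Abca7 and Cd2ap) and 5 for their expression and function in microglia (Inpp5d, Plcg2, Cd33, Spi1 and Abi3). All 10 were present among the 18450 genes measured, and all 10 passed the filter on low counts that left 14694 genes for testing. Expression was measured by RNA sequencing of brain tissue from 9 mice of the genotype APP/PS1, a transgenic model that develops amyloid plaques. The groups were mice exposed to stress (n = 3), mice kept in an enriched environment (n = 3) and control mice kept in a standard environment (n = 3). All 9 carry the transgenes, so none of the comparisons measures an effect of the genotype. Whether amyloid pathology differed between the groups was not tested. The promoter of the transgenes, the strain background, the age and the nature of the stress are not stated in the sources used, and the treatment label reads the same, a standard rearing, for all 9 mice. Each library came from the brain stem together with the anterior part of the brain of 1 perfused mouse, and the replicates of a group carry separate animal codes.

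In endocytosis, adaptor and membrane-bending proteins gather receptors and lipids into clathrin-coated pits, and sorting receptors then route the cargo from endosomes back to the surface, to the Golgi or to lysosomes. The amyloid precursor protein is cut in part along this route. Microglia are the resident macrophages of the brain; their receptors signal through the kinase Syk and phospholipase C gamma 2, and inhibitory receptors and lipid phosphatases restrain that signal.

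The libraries held between 15851841 and 17212999 estimated counts, and 1 CPM (a count scaled by library size) corresponded to between 15.9 and 16.8 reads. All 20 microglial marker genes had enough counts to be tested, with 14728 to 17447 reads of them in a stress library, 15855 to 17876 in enriched and 14184 to 17971 in control libraries. Markers of brain regions varied widely between mice of the same group. For 14 brain stem genes the mean log2 CPM was 2.71, 1.68 and −0.50 in the stress libraries, 1.69, 1.02 and −0.46 in the enriched libraries and 2.69, 2.75 and −0.12 in the control libraries. On this mean, replicate 3 of each group stood apart as low. In summed reads of the same genes, enriched replicate 3 (1857) was above enriched replicate 2 (1710). For 7 olfactory bulb genes the mean log2 CPM was 5.16, 5.62 and 4.525 in the stress libraries. It was 6.01, 5.48 and 5.90 in the enriched and 4.85, 2.95 and 5.54 in the control libraries. Their log2 fold change was above 0 for 6 of 7 in stress and 7 of 7 in enriched against control (median 0.45 and 0.73). The part of these regions in the values of the 10 genes was not tested. Of 10 T cell markers, 9 had a row, and 7 had fewer than 10 reads in every library. The animal codes begin with 1 letter for all stress mice and control replicate 1, and with another for all enriched mice and control replicates 2 and 3. The meaning of these letters is not stated in the sources used.

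The 10 genes spanned a wide range of levels. On the length-scaled TPM scale (summed over a gene's transcripts), Bin1 was the highest, at a mean of 349.4 TPM over the 9 libraries (300.7 to 407.1), and Cd33 the lowest, at 1.67 TPM (0.69 to 2.51). These means lay at percentiles 97.0 and 11.6 of all genes tested. In between came Sorl1 (90.6 TPM), Picalm (60.4), Abca7 (14.2), Spi1 (12.1), Abi3 (10.5), Cd2ap (7.75), Inpp5d (6.41) and Plcg2 (3.24). The endocytosis genes thus took the first 4 places, with Cd2ap in the seventh. The ranges over libraries of Sorl1 and Picalm overlapped, although Picalm was below Sorl1 in 9 of 9 libraries. Overlapping ranges also joined each neighbouring pair from Abca7 through Spi1, Abi3 and Cd2ap to Inpp5d, so those neighbours were not separated by the spread between mice. Abca7 lay above Cd2ap and Inpp5d, and Spi1 and Abi3 above Inpp5d, without overlap. Plcg2 lay below Inpp5d, and Cd33 below Plcg2, in 9 of 9 libraries without overlap. Because these are bulk tissue libraries, fewer cells of a type and less RNA per cell cannot be told apart.

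**Figure D1:**
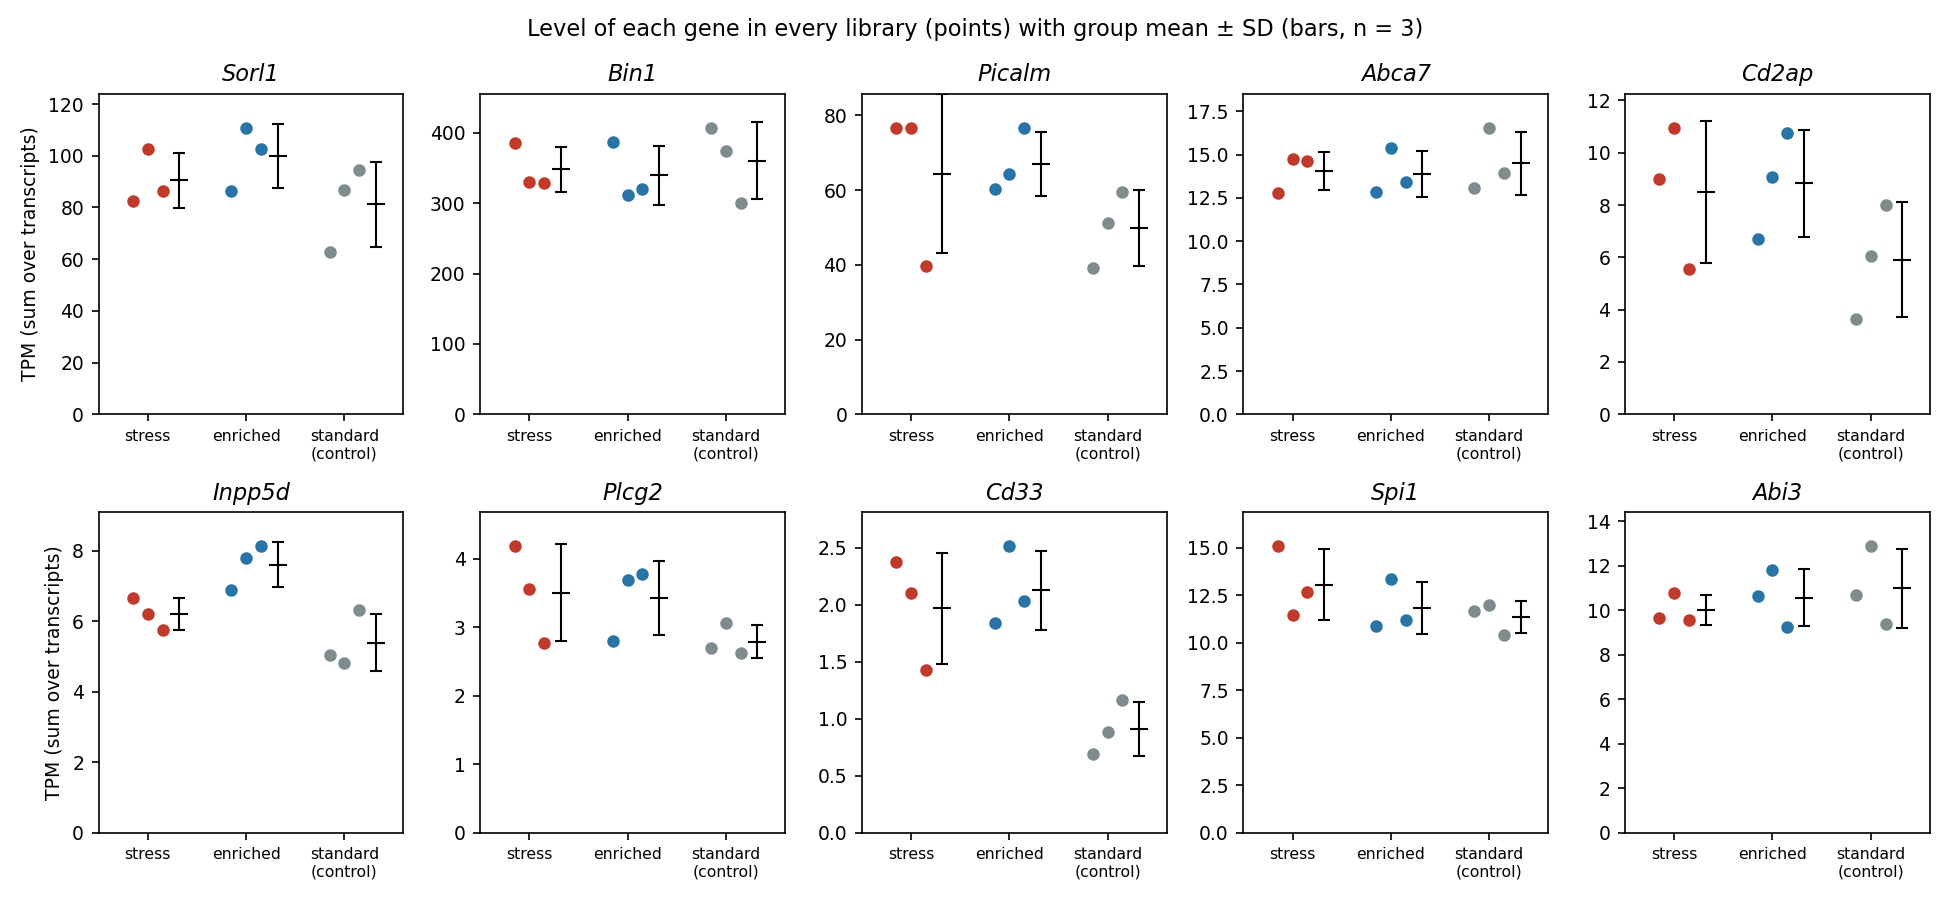
Levels of the 10 genes in TPM (y axis, linear, from 0; a separate scale per gene) in each library, with stress, enriched and control mice on the x axis. Points are single mice and bars the group mean ± SD (n = 3); the 3 control values of Cd33, from 0.69 to 1.16 TPM, lie below all 6 values of the stress and enriched groups.

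The comparisons ask whether stress or an enriched environment goes with a different brain level of these genes. No gene of the 14694 tested passed an adjusted p of 0.05 in edgeR's quasi-likelihood test, in stress against control, enriched against control or stress against enriched (percent of genes called 0 in each), and therefore none of the 10. The smallest adjusted p over all genes was 0.187, 0.180 and 0.999 in these comparisons. At an unadjusted p under 0.05, 1172 genes (7.98%) stood out in stress against control, 2994 (20.4%) in enriched against control and 388 (2.64%) in stress against enriched. Among the 10 genes the corresponding counts were 1 (Cd33), 2 (Cd33 and Inpp5d) and 0. The median log2 fold change of the 10 genes was 0.08 in stress against control, 0.11 in enriched against control and −0.02 in stress against enriched, beside medians of 0.015, 0.015 and 0.0081 over all genes tested. Fold changes above 0 were seen for 7, 6 and 4 of the 10 genes, where 52.3%, 51.7% and 51.9% of all genes lay above 0. Both comparisons with control use the same 3 control libraries, so a similar value in both is not a repeat observation.

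**Figure D2:**
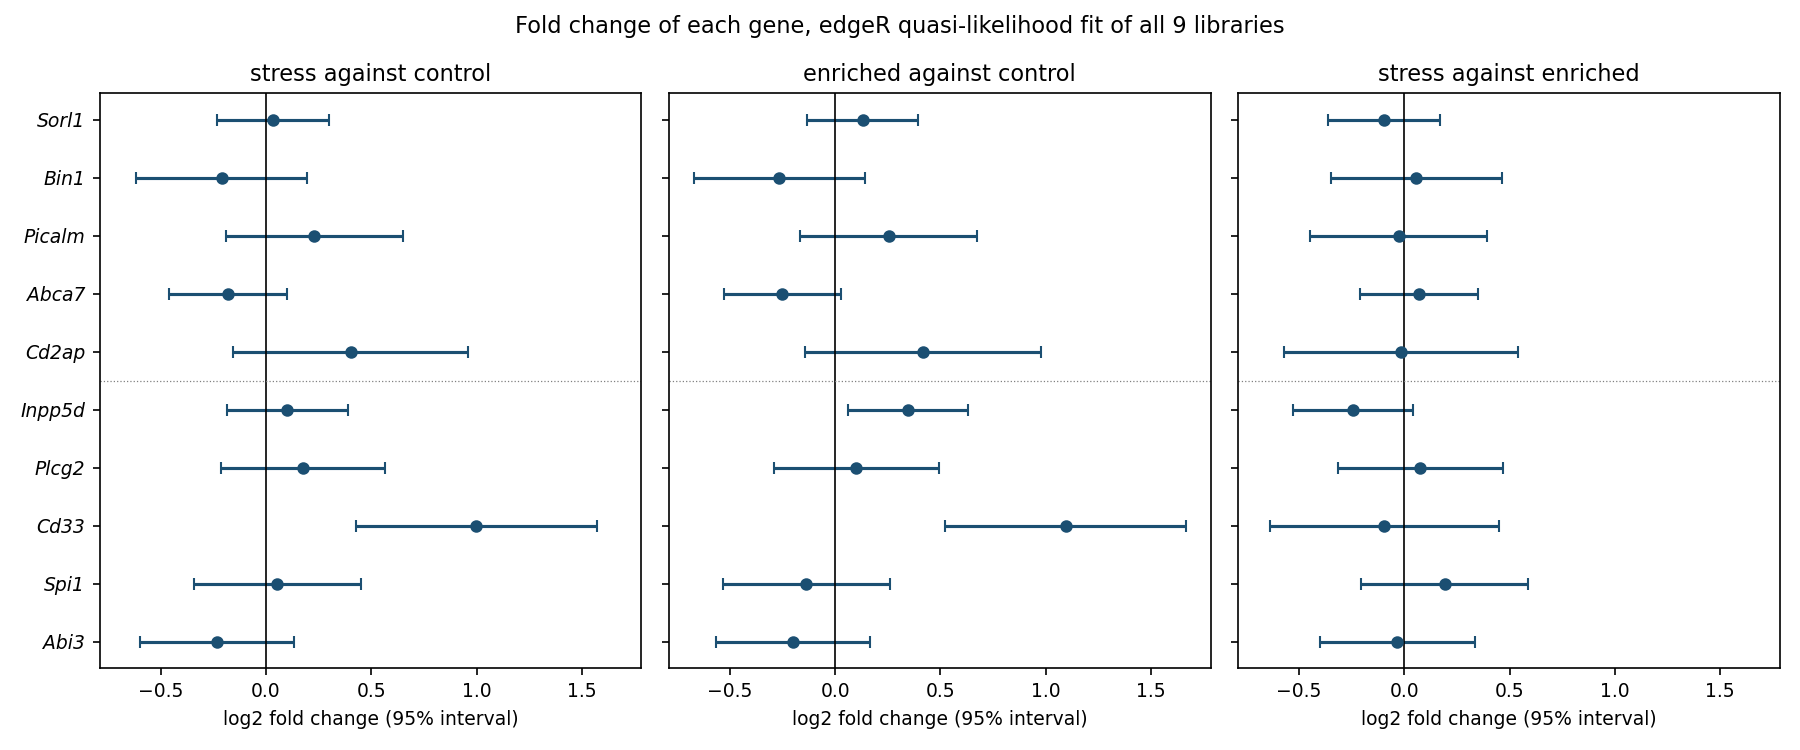
Log2 fold change of each gene (x axis) with its 95% interval in the 3 comparisons (panels), from 1 edgeR fit of all 9 libraries; endocytosis genes are above the dotted line and microglial genes below it. Intervals that exclude 0 are those of Cd33 in stress and in enriched against control, and of Inpp5d in enriched against control.

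Cd33 encodes a sialic acid-binding receptor of myeloid cells. Its fold changes against control were the largest of the 10 genes. Its normalised level was 2.85, 2.40 and 1.89 CPM in the stress libraries and 2.34, 2.91 and 2.38 CPM in the enriched libraries, against 1.03, 1.15 and 1.39 CPM in the control libraries. Every stress and every enriched library lay above every control library. The values rest on few reads, 47, 39 and 31 in stress, 39, 49 and 38 in enriched, and 17, 19 and 23 in control. The log2 fold change was 1.0 ± 0.26 (SE, n = 3 against 3; 95% interval 0.43 to 1.57) in stress against control and 1.09 ± 0.26 (0.52 to 1.67) in enriched against control. By unadjusted p (0.0031 and 0.0017) Cd33 ranked 31st and 44th of the 14694 genes, and its adjusted p in edgeR's test was 0.546 and 0.236. In stress against enriched the log2 fold change was −0.09 ± 0.24, with a 95% interval from −0.64 to 0.45. Of all genes, 5.19% lay above the control libraries without overlap in stress and 12.5% in enriched, and 3 against 3 cannot give an exact permutation p below 0.1. On the log2(TPM + 1) scale, which understates the change of low genes, the differences from control were 0.63 in stress and 0.71 in enriched. Among the 6 libraries with higher brain stem markers (without replicate 3 of each group) they were 1.27 in stress and 1.27 in enriched, with adjusted p of 0.0586 and 0.0717 in edgeR's test. Without control replicate 3 alone, Cd33 passed in enriched against control (log2 fold change 1.22, adjusted p = 0.0437 in edgeR's test), in a fit that called 1586 genes. In the fit of 6 libraries 135 genes passed the adjusted threshold in stress and 68 in enriched against control, none of them among the 10.

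The difference in Cd33 was compared with the microglial markers of the same libraries. The mean log2 CPM of the 20 markers was 4.93 ± 0.10 in stress, 5.05 ± 0.11 in enriched and 4.86 ± 0.14 in control libraries (SD, n = 3 each). Relative to that mean, Cd33 lay at −3.31, −3.52 and −4.04 in the stress libraries, at −3.74, −3.34 and −3.84 in the enriched libraries, and at −4.76, −4.36 and −4.33 in the control libraries. The groups did not overlap on this scale either, with differences from control of 0.86 in stress and 0.84 in enriched (two-sided exact permutation test, p = 0.1 for each, the smallest possible). Cd33 is also expressed by blood neutrophils and monocytes. For 12 of their markers the fold change was above 0 for 12 in stress and 11 in enriched against control, none of them past the adjusted threshold. The mean log2 CPM of that list was 3.44, 1.62 and 2.21 in stress, 1.85, 2.57 and 0.89 in enriched, and 2.03, 1.09 and 1.53 in control libraries. The highest list mean was that of stress replicate 1, with a Cd33 level of 2.85 CPM. The lowest was that of enriched replicate 3, with a Cd33 level of 2.38 CPM. All 13 endothelial and pericyte markers also lay above 0 in both comparisons with control (median log2 fold change 0.84 in stress and 0.48 in enriched), and all 10 choroid plexus markers lay below 0 (−1.19 and −1.42). The part of these lists in the Cd33 values was not tested.

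A pair of Cd33 transcripts of the RefSeq annotation held most of the gene's TPM, and they differ by 1 exon of 83 bases on the minus strand (GRCm38, chr7:43529473-43529555). The exon is in NM_001111058.1 and not in NM_021293.3; its length is not a multiple of 3, so the reading frame after it differs. It is shown because it is the stretch that tells the transcripts apart, with the exon in capitals and the adjoining coding bases in lower case, from the GENCODE M21 transcript sequences.
Cd33 exon: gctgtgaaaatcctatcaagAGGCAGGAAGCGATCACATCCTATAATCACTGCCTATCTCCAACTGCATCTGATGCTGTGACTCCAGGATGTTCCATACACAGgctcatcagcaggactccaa
NM_021293.3 held 61.3% ± 27.4 of the Cd33 TPM in stress, 58.0% ± 2.66 in enriched and 79.6% ± 35.4 in control libraries (SD, n = 3 each). The transcript with the exon had 27.8, 6.46 and 9.74 estimated reads in stress, 14.7, 15.9 and 10.9 in enriched, and 0, 11.8 and 0 in control libraries. It was therefore listed at 0 in 2 of 3 control libraries and found in all 6 others. The share of NM_021293.3 did not separate the groups (two-sided exact permutation test, p = 0.5 in stress and 0.4 in enriched against control). At this depth the split rests on at most 27.8 and 32.5 reads per library, which RSEM divides between similar transcripts by estimation.

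Inpp5d encodes SHIP1, a phosphatase that removes a phosphate from the membrane lipid PIP3 and so restrains signalling downstream of PI3 kinase in blood and microglial cells. Its level was 14.8, 12.9 and 12.9 CPM in stress and 15.5, 15.99 and 16.6 CPM in enriched libraries, against 13.7, 10.9 and 13.3 CPM in control libraries. All 3 enriched libraries lay above all control and all stress libraries, whereas stress and control overlapped. The log2 fold change in enriched against control was 0.35 ± 0.13 (95% interval 0.06 to 0.63; unadjusted p = 0.0227, adjusted p = 0.236 in edgeR's test). In stress against control it was 0.10 ± 0.13, and in stress against enriched −0.24 ± 0.13, with an interval of −0.53 to 0.04. Of all genes, 12.5% lay higher in enriched than in control libraries without overlap, and 5.42% lay lower in stress than in enriched libraries. Relative to the microglial marker mean of each library, the enriched libraries still lay above the control libraries, but by 0.16 (two-sided exact permutation test, p = 0.1, the smallest possible). After a per-library trend on transcript length was removed, the difference was 0.25 with an unadjusted p of 0.072.

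The Inpp5d transcripts NM_010566.3 and NM_001110193.2 differ by a coding stretch of 183 bases on the plus strand (GRCm38, chr1:87715094-87715276), present in NM_010566.3 and in frame. It is shown in capitals with adjoining coding bases in lower case, again as the part that tells them apart in the GENCODE M21 sequences.
Inpp5d coding stretch: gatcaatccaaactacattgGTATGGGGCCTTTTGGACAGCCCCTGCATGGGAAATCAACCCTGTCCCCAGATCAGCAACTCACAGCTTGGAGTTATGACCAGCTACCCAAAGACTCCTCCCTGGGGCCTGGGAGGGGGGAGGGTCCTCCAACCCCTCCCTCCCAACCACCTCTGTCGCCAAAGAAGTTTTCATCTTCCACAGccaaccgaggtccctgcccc
NM_010566.3 held 35.2% ± 8.99 of the Inpp5d TPM in stress, 45.4% ± 9.05 in enriched and 31.2% ± 13.7 in control libraries. NM_001110193.2, without the stretch, held 28.8% ± 16.7 in stress, 15.6% ± 1.46 in enriched and 27.7% ± 6.42 in control libraries. In the enriched group its 3 shares, 14.4%, 17.2% and 15.1%, were close together, while the stress libraries ran from 13.6% to 46.6%. The share of NM_010566.3 overlapped between the groups (exact permutation p = 0.7 in stress and 0.3 in enriched against control). A further transcript, XM_006529154.4, held 33.3% ± 14.7 of the Inpp5d TPM in stress, 34.6% ± 1.70 in enriched and 38.8% ± 4.71 in control libraries. The split therefore does not lie between the named pair alone.

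Plcg2 encodes phospholipase C gamma 2, which splits a membrane lipid into second messengers below Syk-coupled receptors. Its level was 8.81, 7.38 and 6.60 CPM in stress, 6.29, 7.55 and 7.78 CPM in enriched and 7.30, 7.13 and 5.75 CPM in control libraries. The 3 groups overlapped, with log2 fold changes of 0.18 ± 0.18 in stress and 0.10 ± 0.18 in enriched against control. The interval in enriched against control, −0.29 to 0.49, includes changes in both directions. Spi1 encodes PU.1, the transcription factor needed for the macrophage lineage. It had 9.47, 7.02 and 9.10 CPM in stress, 7.19, 8.32 and 6.90 CPM in enriched and 9.41, 8.33 and 6.90 CPM in control libraries. No order of the groups was visible, and the log2 fold changes were 0.05 ± 0.18 in stress and −0.14 ± 0.18 in enriched against control. The first turned to −0.027 without stress replicate 1 and to −0.057 without control replicate 3, and the second to 0.089 with the transcript length trend removed. Abi3 encodes a subunit of the WAVE complex, which drives actin branching. Its level was 17.6, 20.0 and 20.2 CPM in stress, 20.9, 21.3 and 17.0 CPM in enriched and 24.6, 26.0 and 17.4 CPM in control libraries. Of the control libraries 2 lay above all others and the third was among the lowest, and the log2 fold changes were −0.23 ± 0.16 in stress and −0.20 ± 0.16 in enriched against control. Without control replicate 3 they were −0.39 in stress and −0.36 in enriched, neither past the adjusted threshold.

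Spi1 recognises a purine-rich sequence with the core GAGGAA, and the promoters of Cd33, Inpp5d and Picalm, whose levels did not overlap between the groups of a comparison, are shown for that reason. Each window runs from 250 bases before to 30 bases after a RefSeq transcription start (GRCm38.p6), with GAGGAA, or TTCCTC where it lies on the other strand, in capitals. The Cd33 window is chr7:43533142-43533421 on the minus strand, the Inpp5d window chr1:87620062-87620341 on the plus strand and the Picalm window chr7:90129963-90130242 on the plus strand.
Cd33 promoter: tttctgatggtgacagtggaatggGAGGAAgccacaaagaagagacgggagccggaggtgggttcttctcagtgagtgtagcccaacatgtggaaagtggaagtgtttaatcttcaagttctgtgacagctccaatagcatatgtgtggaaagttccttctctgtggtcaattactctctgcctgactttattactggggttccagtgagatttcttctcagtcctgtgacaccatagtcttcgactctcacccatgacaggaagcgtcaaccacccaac
Inpp5d promoter: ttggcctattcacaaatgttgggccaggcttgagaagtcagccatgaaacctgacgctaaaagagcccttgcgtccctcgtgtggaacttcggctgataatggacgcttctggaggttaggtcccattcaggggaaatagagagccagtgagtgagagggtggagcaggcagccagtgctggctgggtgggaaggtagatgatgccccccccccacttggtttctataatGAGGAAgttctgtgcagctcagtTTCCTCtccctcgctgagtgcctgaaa
Picalm promoter: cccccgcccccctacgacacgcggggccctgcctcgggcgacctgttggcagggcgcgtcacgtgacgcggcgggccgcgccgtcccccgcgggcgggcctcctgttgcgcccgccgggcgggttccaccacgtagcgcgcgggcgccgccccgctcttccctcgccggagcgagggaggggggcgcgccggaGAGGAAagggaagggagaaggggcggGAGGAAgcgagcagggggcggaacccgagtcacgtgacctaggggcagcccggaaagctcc
The Cd33 window holds 1 match, which begins 226 bases before the start, and the Inpp5d window holds 2, the first 20 bases before the start and the second from base 4 after it on the other strand. The Picalm window holds 2, which begin 57 and 31 bases before the start. Windows were counted for 7 of the 10 genes (8 windows, since Sorl1 has 2), and 3 of the 8 held a match. Bin1, Spi1 and Abi3 were not part of this count. Of all 32851 RefSeq windows of this length, 26.0% held one on either strand. A match is a description of the letters and not a binding site. The Spi1 level itself overlapped between all groups.

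Sorl1 encodes a sorting receptor that carries the amyloid precursor protein away from late endosomes. Its level was 431.6, 530.3 and 509.5 CPM in stress, 485.0, 564.1 and 524.0 CPM in enriched and 423.3, 499.8 and 514.2 CPM in control libraries. The groups overlapped, and the log2 fold changes of 0.03 ± 0.12 in stress and 0.13 ± 0.12 in enriched against control turned to −0.17 and −0.20 once the transcript length trend was removed. Of its 2 transcripts, NM_001357261.1 held 70.5% ± 5.98 of the TPM in stress, 62.2% ± 5.23 in enriched and 67.1% ± 4.53 in control libraries, shares that overlapped between groups. Bin1 encodes amphiphysin 2, which bends membranes and is abundant in oligodendrocytes and neurons. It had 386.8, 335.0 and 382.5 CPM in stress, 425.7, 314.6 and 321.9 CPM in enriched and 530.6, 422.6 and 324.2 CPM in control libraries. Control replicate 1 was the highest of all 9, and the log2 fold change of −0.21 ± 0.18 in stress against control was −0.02 without it. In enriched against control it was −0.27 ± 0.18, and −0.09 without that library. Without replicate 3 of each group the values were −0.40 in stress and −0.36 in enriched against control. With the animal code letter as a covariate the stress value was −0.53 and the enriched value −0.077. Only control replicate 1 carries the letter of the stress mice, so this stress value is a comparison with that library alone. Across the 9 libraries the log2 CPM of Bin1 had a Pearson's r of 0.64 with the mean of the brain stem genes and of 0.47 with that of 10 oligodendrocyte genes, given as a description of 9 libraries that share dissection and depth. Values as large were not limited to Bin1. Sorl1 had 0.71 with the mean of 9 cerebellum genes and −0.63 with that of the oligodendrocyte genes, and Plcg2 had 0.64 with the latter.

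Picalm encodes a clathrin assembly protein. Its level was 155.2, 153.6 and 91.4 CPM in stress and 129.7, 126.6 and 151.3 CPM in enriched libraries, against 102.1, 114.0 and 125.4 CPM in control libraries. The enriched libraries all lay above the control libraries, as did 12.5% of all genes. The lowest enriched value, 126.6 CPM, was close to the highest control value of 125.4 CPM. In stress, 2 libraries were the highest of all 9 and the third was the lowest. The log2 fold change was 0.23 ± 0.19 in stress and 0.25 ± 0.19 in enriched against control (unadjusted p = 0.253 and 0.206). Without stress replicate 3, which also had the lowest brain stem markers of all libraries, the first was 0.44. Without replicate 3 of each group it was 0.51 in stress (unadjusted p = 0.0012, adjusted p = 0.0523 in edgeR's test) and 0.25 in enriched against control. Cd2ap encodes an adaptor that links receptors to actin and to endocytic sorting. It had 24.0, 28.9 and 16.8 CPM in stress and 19.1, 23.3 and 28.0 CPM in enriched libraries, against 12.5, 17.9 and 22.3 CPM in control libraries. The values overlapped, with log2 fold changes of 0.40 ± 0.25 in stress (95% interval −0.16 to 0.96) and 0.42 ± 0.25 in enriched against control (−0.14 to 0.98). Control replicate 1 was the lowest library, and without it these values were 0.21 in stress and 0.22 in enriched. Without replicate 3 of each group they were 0.80 in stress and 0.48 in enriched. With the animal code letter as a covariate they were 0.89 in stress, which then rests on control replicate 1 alone, and 0.22 in enriched. Abca7 encodes a lipid transporter of the family that moves phospholipid and cholesterol to apolipoproteins. It had 42.6, 48.1 and 55.0 CPM in stress, 45.7, 49.7 and 43.5 CPM in enriched and 56.2, 60.6 and 48.4 CPM in control libraries. The groups overlapped, and the log2 fold changes were −0.18 ± 0.12 in stress and −0.25 ± 0.12 in enriched against control. With the transcript length trend removed they were −0.32 in stress and −0.48 in enriched, the second at an unadjusted p of 0.0156. Without replicate 3 of each group the stress value was −0.36.

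**Figure D3:**
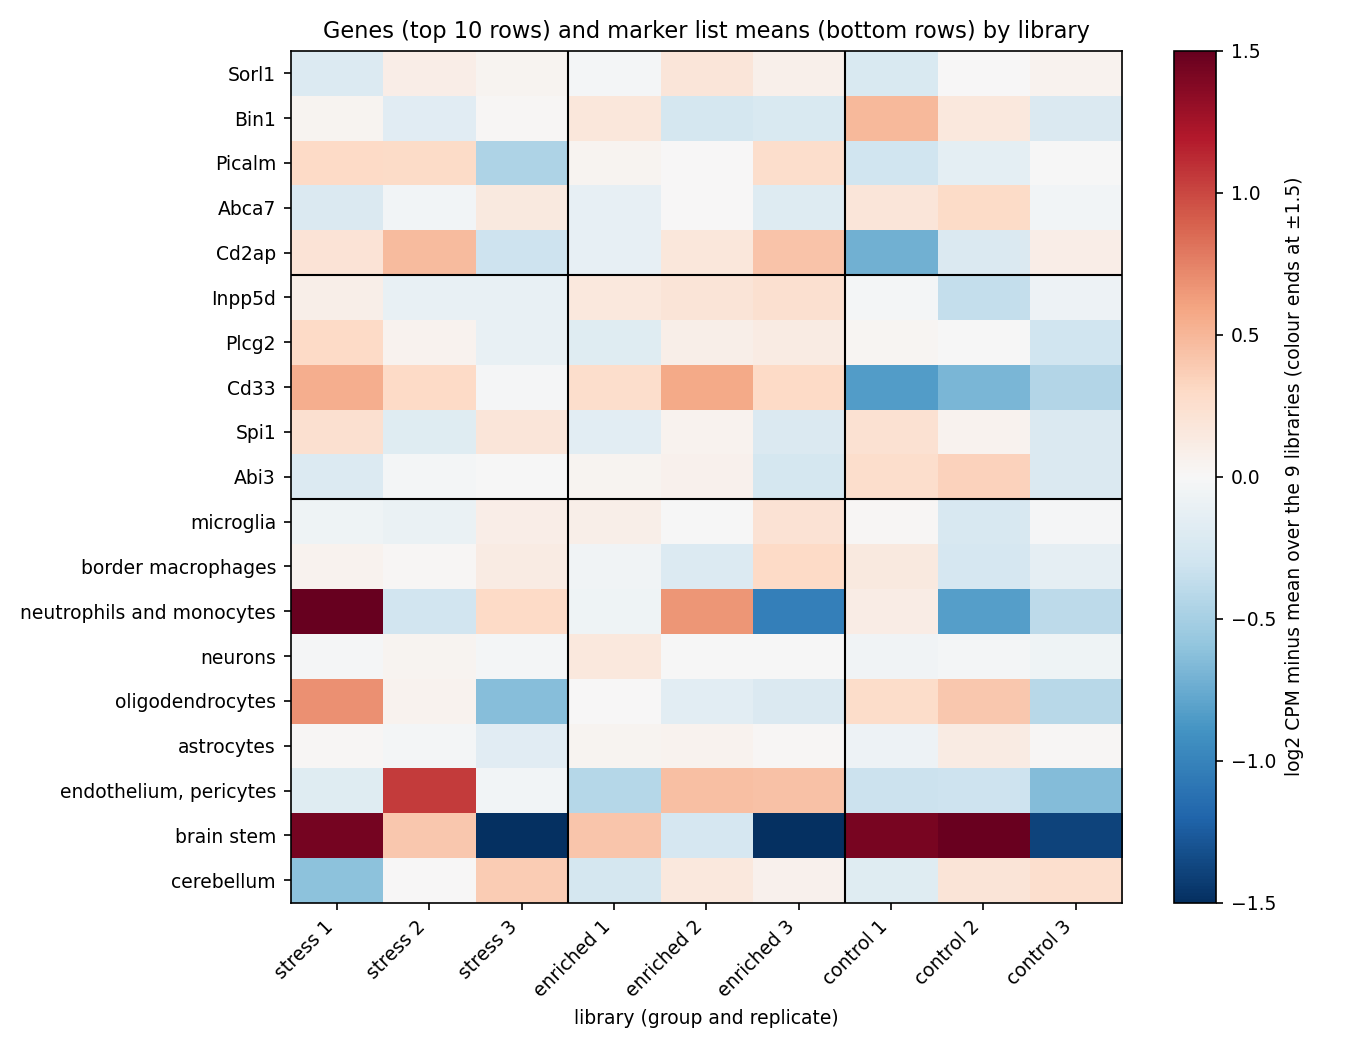
Log2 CPM of each gene (top 10 rows) and mean log2 CPM of marker lists (bottom rows) in each library (columns). Values are the difference from the mean over the 9 libraries, and the colour scale ends at ±1.5. Beyond it lie the brain stem values of stress replicate 3 (−1.78) and enriched replicate 3 (−1.74). The neutrophil and monocyte value of stress replicate 1 (1.53) also exceeds it. Cd33 is below its mean in all 3 control libraries, and the brain stem row is lowest in replicate 3 of each group.

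The genes did not vary together as a group. Over the 9 libraries, Pearson's r of log2 CPM ran from 0.86 between Picalm and Cd2ap and 0.84 between Abca7 and Abi3 down to −0.81 between Picalm and Abca7 and −0.86 between Bin1 and Cd2ap. These 45 pairs share libraries, depth and dissection and are descriptive. Of the 10 genes, Inpp5d followed the mean of the microglial markers most closely (r = 0.75), while Cd33 had 0.34, Plcg2 −0.09, Spi1 −0.22 and Abi3 −0.52. The tested genes most like Cd33 over the 9 libraries were Nhlrc3 and Slc10a7 (r = 0.96 each), and those most like Inpp5d were Etv6 (0.96) and Ptpn6 (0.94). Sorl1 was closest to Shisa6 (0.98) and Ints12 (0.96), Picalm to Mtmr2 and Pign (0.97 each), and Abca7 to Alad (0.98) and Kcng4 (0.96). The closest genes were Gramd1a and Tradd for Bin1 (0.99 each) and Pik3c2a (0.99) and Cul5 (0.98) for Cd2ap. For the other microglial genes they were Smtn (0.94) and Trim68 (0.93) for Plcg2, Zfyve27 (0.95) and Tmem114 (0.93) for Spi1, and Zyx and Lbx1 (0.94 each) for Abi3. They are in each case the 2 highest among the tested genes with a mean of at least 1 CPM, over 9 points.

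The 80 transcript rows of the 10 genes varied more than the gene totals. Of 40622 transcripts tested, including 50 of these 80, none passed an adjusted p of 0.05 in edgeR's test in any comparison. At an unadjusted p under 0.05 the transcripts of the 10 genes numbered 1 in stress against control, 4 in enriched against control and 0 in stress against enriched, where the shares over all transcripts were 4.53%, 8.24% and 3.70%. The share of a gene's TPM held by its most abundant transcript was compared for the 9 genes with several rows. It did not overlap between the groups for 1 of 9 in stress against control (Cd2ap), 2 of 9 in enriched against control (Abi3 and Spi1) and 0 of 9 in stress against enriched. Over the 10487 tested genes with several rows, the same held for 8.95%, 13.6% and 12.3%, and these few members are given as values only. NM_025659.4 held 52.8% ± 16.7 of the Abi3 TPM in stress, 62.3% ± 7.81 in enriched and 33.7% ± 10.5 in control libraries, and the enriched libraries lay above the control libraries without overlap (two-sided exact permutation test, p = 0.1, the smallest possible). NM_001163464.1 made up most of the rest, with 178.5, 118.9 and 91.5 estimated reads in stress, 102.0, 146.6 and 69.1 in enriched and 298.1, 255.6 and 139.4 in control libraries. Its log2 fold change in enriched against control was −1.13 ± 0.41 (unadjusted p = 0.0257, adjusted p = 0.595 in edgeR's test on transcripts). Both identifiers are tied to the same GENCODE M21 transcript, so the table alone does not say which bases differ. Abi3 also overlaps Zfp652, Phospho1 and Gngt2 on the opposite strand, and no strand marking is described for these libraries.

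For Cd2ap and Spi1 the most abundant transcript was the larger part of the gene. NM_009847.3 held 93.0% ± 2.84 of Cd2ap TPM in stress, 86.7% ± 4.15 in enriched and 86.2% ± 1.61 in control libraries, without overlap between stress and control (exact permutation p = 0.1, the smallest possible). NM_011355.2 held 81.0% ± 5.04 of Spi1 TPM in stress, 80.2% ± 2.52 in enriched and 86.3% ± 2.83 in control libraries, without overlap between enriched and control (exact permutation p = 0.1). Bin1 and Picalm had 25 and 20 transcript rows, of which 2 and 1 had no read in any library, and their most abundant row held at most 16.7% of Bin1 and 26.6% of Picalm TPM. One Picalm row, XM_030242475.1, had 45.8, 208.3 and 107.2 estimated reads in stress and 118.3, 0 and 118.6 in enriched libraries, and was listed at 0 in all 3 control libraries. A value that switches between 0 and about 100 reads within the enriched group is given as the estimate that the table holds, with no fold change. Plcg2 had a single row.

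**Figure D4:**
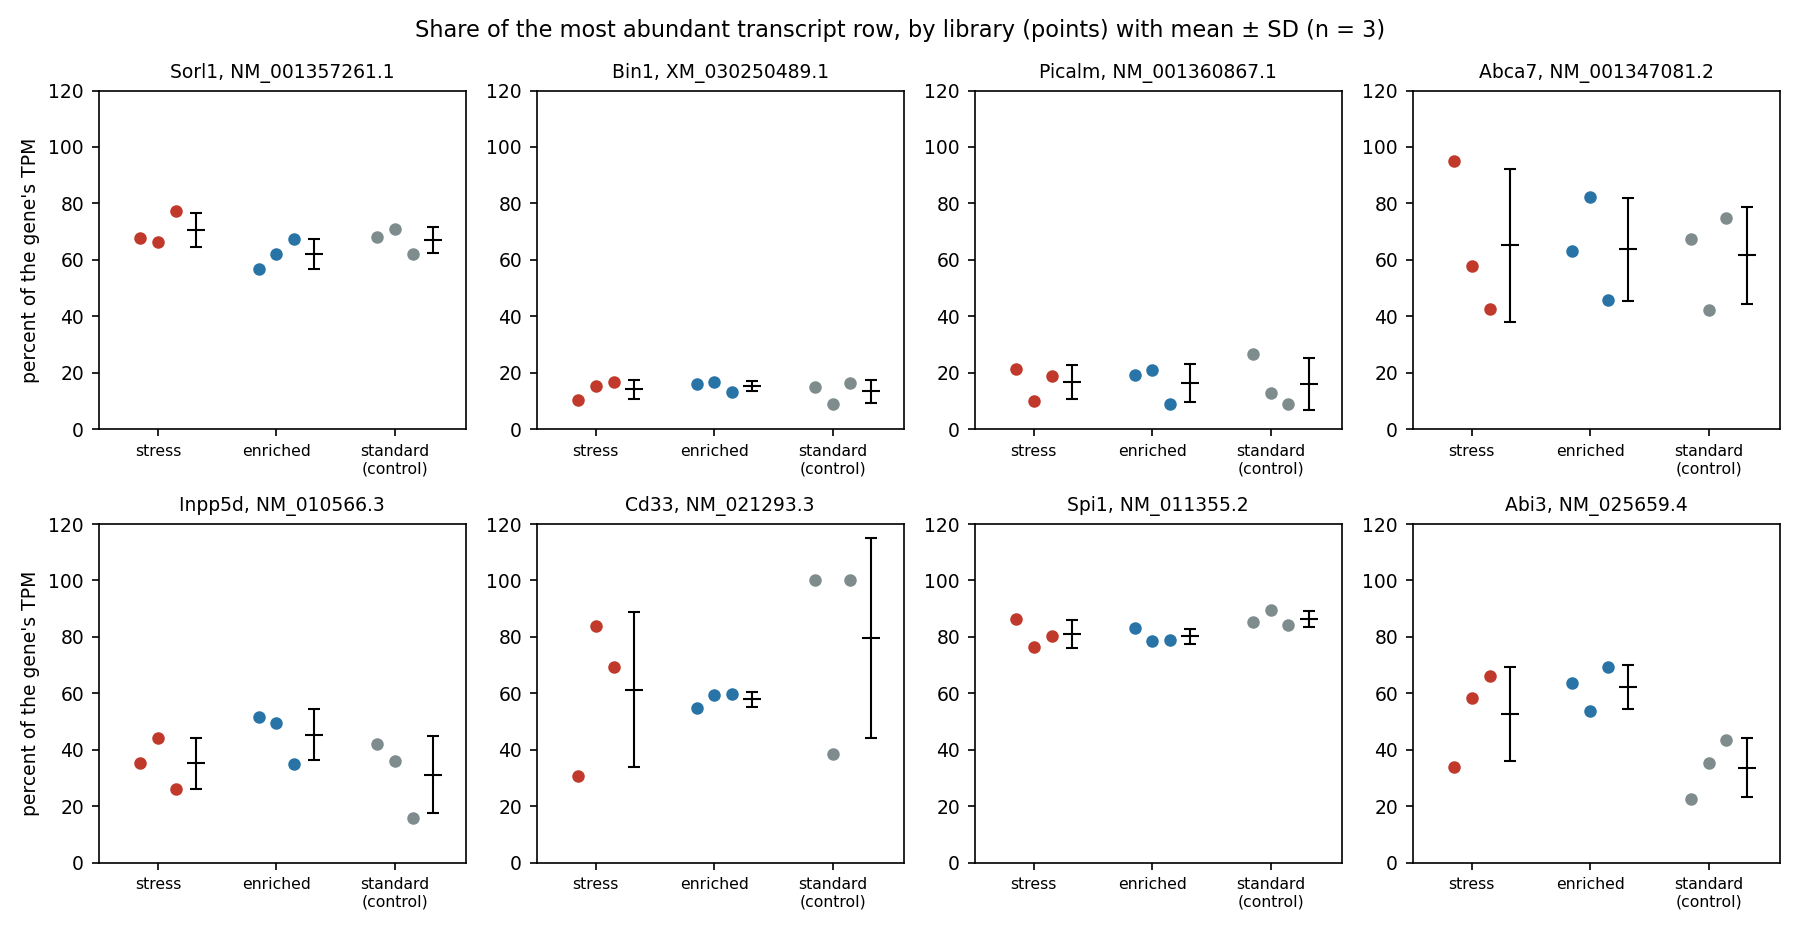
Percent of a gene's TPM held by its most abundant transcript row (y axis) in each library, for 8 of the genes, with stress, enriched and control mice on the x axis; points are single mice and bars the mean ± SD (n = 3). Abi3 lies at 53.9% to 69.3% in enriched against 22.5% to 43.3% in control mice, while Cd33 and Abca7 spread widely within groups.

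Partners of the 10 genes were followed as lists. Of 22 paralogs, 19 were tested, and 16 lay above 0 in stress and 17 in enriched against control (median log2 fold change 0.20 and 0.19). An unadjusted p under 0.05 was reached by 1 and 6 of the 19, where 7.98% and 20.4% of all genes reached it. Among the 19 were the Sorl1 relatives Sorcs1 (0.47 ± 0.16 in stress, 0.38 ± 0.16 in enriched) and Sort1 (0.23 ± 0.11 and 0.36 ± 0.11). Of 26 genes of clathrin-mediated endocytosis, 14 lay above 0 in stress and 17 in enriched against control, with medians of 0.06 and 0.09. In enriched against control 6 of the 26 were higher and 3 lower at an unadjusted p under 0.05. Of all genes, 20.4% reached that p and 9.93% did so as higher. Among these clathrin genes were Hip1, which binds clathrin and actin (0.38 ± 0.10), Itsn2, an endocytic scaffold (0.51 ± 0.16), and Clta, a clathrin light chain (−0.44 ± 0.15). The 25 genes of endosomal sorting were divided, 15 above 0 in stress and 11 in enriched against control, with Eea1 at 0.45 ± 0.19 and 0.50 ± 0.19. None of the genes in these lists passed the adjusted threshold.

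Of 25 genes of microglial receptor signalling, 23 were tested. Above 0 lay 18 in stress and 15 in enriched against control (median log2 fold change 0.18 and 0.15). In enriched against control 7 were higher and 0 lower at an unadjusted p under 0.05, where 9.93% of all genes were higher. Syk, the kinase upstream of Plcg2, had 5.65, 4.80 and 4.09 CPM in stress and 5.57, 5.71 and 6.33 CPM in enriched libraries, against 3.80, 3.87 and 3.57 CPM in control libraries. All stress and enriched libraries thus exceeded all control libraries, and the log2 fold changes were 0.37 ± 0.18 in stress and 0.65 ± 0.17 in enriched against control. Lyn, a Src-family kinase that phosphorylates inhibitory receptors, stood at 0.51 ± 0.14 in enriched against control and at −0.37 ± 0.14 in stress against enriched. Nckap1l, the blood-cell partner of Abi3 in the WAVE complex, stood at 0.44 ± 0.16 in stress and 0.58 ± 0.16 in enriched against control, where Abi3 itself was at −0.23 and −0.20. The adjusted p of these genes in enriched against control was 0.236 in edgeR's test. Beside them, the microglial markers themselves lay above 0 for 13 of 20 in stress and 16 of 20 in enriched against control (median 0.07 and 0.08), with P2ry12 at 0.51 ± 0.29 and 0.80 ± 0.29.

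Of 12 transcription factors that act with Spi1 in myeloid cells, 9 lay above 0 in stress and 10 in enriched against control, with medians of 0.21 and 0.34. Sall1, which is restricted to microglia among macrophages but is also made by other brain cells, stood at 1.2 ± 0.45 in enriched against control. Mef2c, at 0.80 ± 0.31, is a neuronal gene as well. Of 34 other Alzheimer's disease risk genes, 32 were tested, and 21 lay above 0 in stress and 20 in enriched against control (median 0.09 and 0.05). The smallest p-values were those of Tnip1, an inhibitor of NF-kappaB signalling (−0.36 ± 0.11 and −0.44 ± 0.11). Ace, the angiotensin-converting enzyme, had 36.7, 51.0 and 49.8 CPM in stress and 25.4, 57.1 and 24.4 CPM in enriched libraries, against 71.9, 71.8 and 72.1 CPM in control libraries. Ace is strongly made by the choroid plexus, whose 10 markers all lay below 0 in the same comparisons; their part in the Ace values was not tested. No gene of these lists passed the adjusted threshold.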

How the data were processed

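Per the labels' protocols, polyadenylated RNA was selected with oligo(dT) beads and reverse transcribed from random hexamers; neither molecular identifiers nor strand marking are mentioned. The build GRCm38.p6 and the tools RSEM 1.2.12, Bowtie2 2.2.5 and HISAT2 2.0.4 are listed in the submitters' processing notes without roles. The deposited table gives an estimated count per RefSeq transcript, which need not be whole (56.5% were not). It also gives the authors' TPM, and the authors' FPKM, of which the 9 columns were not used. Its 65535 rows hold 956737 to 960729 TPM per library, so transcripts outside them were not analysed here; for the 10 genes the rows cover, for example, 25 of 30 annotated Bin1 and 5 of 8 Inpp5d transcripts.

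Estimated counts were summed to 18450 genes and rounded. In R 4.3.3, edgeR 4.0.16 filtered them with filterByExpr (minimum count 10, minimum total 15), scaled them by TMM (factors 0.964 to 1.025) and fitted all 9 libraries in 1 robust quasi-likelihood model with 6 residual degrees of freedom. The Benjamini-Hochberg adjustment ran over all 14694 genes with a threshold of 0.05; standard errors come from the F statistic. Replicates were numbered in accession order. CPM uses TMM-scaled library sizes, and log2 CPM a prior count of 2. Transcripts were fitted alike. Alternatives were DESeq2 1.42.0 and its size factors, no filter, limma 3.58.1 on log2(TPM + 1), only 2 groups per fit, removal of the length trend and each library left out. A covariate for the animal code letter, and a fit without replicate 3 of each group, were chosen after seeing the data. That covariate in effect sets stress against control replicate 1 alone, and enriched against control replicates 2 and 3. Single values were compared by exact permutation (SciPy 1.17.1, Python 3.11.15). The fit was tested on simulated data.

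The 10 genes and the lists were chosen with earlier results of these data known. All 10 genes are named, and of each list up to 4 tested genes with the smallest p in a comparison. Of the list genes that this rule selects, 1 is not reported here. P-values measure the spread between 3 mice per group, dissection included. Genes were matched by identifier to the RefSeq annotation of GRCm38.p6; coding stretches came from GENCODE M21.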

Additional observations from a re-analysis of the deposited data

How the results depend on the processing

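No paired analysis was possible because the labels give no replicate numbers that groups share. The count of genes past the adjusted threshold, 0 in each comparison in edgeR's main fit, was 7 in stress and 40 in enriched against control with DESeq2, none of them among the 10 genes. When each replicate was left out in turn, it ranged from 0 to 1586 in enriched against control (1586 without control replicate 3 and 33 without enriched replicate 2) and from 0 to 2 in stress against enriched (2 without enriched replicate 2). Of the 10 genes, 0 to 1 passed in enriched against control, the 1 being Cd33 without control replicate 3 (adjusted p = 0.0437). The number of the 10 genes at an unadjusted p under 0.05 reached 4 in stress and 6 in enriched against control without that library, where 3555 and 5384 of all genes did. Without stress replicate 3 it was 3 in stress against control, where 3086 of all genes did. With the animal code letter as a covariate, stress was compared with control replicate 1 alone and enriched with control replicates 2 and 3. Counts of genes passing are therefore not given for that setting. Without replicate 3 of each group, 135 genes passed in stress and 68 in enriched against control, none of the 10. These replicates had the lowest mean log2 CPM of brain stem markers. No transcript passed in any alternative run on transcripts (DESeq2 size factors, no filter, each replicate left out).

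The fold changes of the 10 genes in 3 comparisons were recomputed under 17 alternatives each, 510 values in all. Of these, 467 kept direction and side of the threshold, 1 newly passed and 42 changed sign, 28 of them in stress against enriched. The cause was not tested. Cd33 kept its direction throughout against control, from 0.63 to 1.27 in stress and from 0.71 to 1.27 in enriched. With the letter as a covariate it was 1.21 in stress, against control replicate 1 alone, and 1.0 in enriched, against control replicates 2 and 3.

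With the length trend removed, the values that changed sign were Sorl1 (−0.17 in stress and −0.20 in enriched against control, 0.033 in stress against enriched), Spi1 (0.089) and Plcg2 (−0.0027) in enriched against control, and Cd2ap (0.036) in stress against enriched. On log2(TPM + 1), Spi1 was 0.049 in enriched against control. The letter covariate makes all values involving stress rest on control replicate 1, the only control with the letter of the stress mice. With that covariate, Cd2ap moved to 0.89 and Bin1 to −0.53 in stress against control. Inpp5d was −0.018 and Spi1 −0.14 in stress against control; in stress against enriched, Cd2ap was 0.66, Cd33 0.21, Spi1 −0.11, Sorl1 0.16, Picalm 0.20, Plcg2 −0.10 and Bin1 −0.45. Without replicate 3 of each group, Spi1 was −0.11 in stress and Plcg2 −0.059 in enriched against control; in stress against enriched, Cd2ap was 0.32, Cd33 0.00046, Picalm 0.27, Abca7 −0.073 and Bin1 −0.037. With each replicate left out, the ranges that crossed 0 in stress against control were −0.057 to 0.18 for Spi1 and −0.051 to 0.12 for Sorl1, and in enriched against control −0.0014 to 0.18 for Plcg2. In stress against enriched they were −0.20 to 0.17 for Cd2ap, −0.24 to 0.045 for Cd33, −0.15 to 0.18 for Picalm, −0.044 to 0.17 for Plcg2, −0.030 to 0.16 for Abca7, −0.022 to 0.22 for Bin1 and −0.13 to 0.027 for Abi3.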
